A study of Danio rerio with 2 samples.

Results

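Expression of 7 mesenchymal genes, of 25107 genes in the count tables, was followed through sorted cells of zebrafish embryos: the transcription factors twist1a (ENSDARG00000030402), twist1b (ENSDARG00000076010), twist2 (ENSDARG00000078266), prrx1a (ENSDARG00000033971), prrx1b (ENSDARG00000042027) and meox1 (ENSDARG00000007891), and the receptor gene pdgfra (ENSDARG00000070494). They were chosen by symbol, as genes of embryonic mesenchyme and with earlier results of these data known, and each matched a single gene ID. Cells came from Tg(mitfa:GFP) embryos at 24 hours post fertilisation (hpf), whose green fluorescent protein (GFP) is under the promoter of mitfa, a melanophore master regulator. One fraction with high GFP and 1 fraction with low GFP were sorted from these embryos, and both fractions carry the same transgene and age. Each yielded 1 library of droplet-based single-cell RNA sequencing, so library and GFP level cannot be told apart, and the number of embryos behind each library was not given in the sources used here. The deposited cell table assigned 4735 cells to 10 numbered clusters, and the comparison of interest set cluster 2 (199 cells of the high library and 265 of the low library) against cluster 1 (435 and 380 cells).

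Twist proteins are basic helix-loop-helix (bHLH) factors that bind DNA as dimers, often with the E proteins encoded by the tcf3 and tcf12 genes, while Id proteins bind E proteins and keep them from DNA. Prrx1 factors are paired-related homeodomain proteins of limb, fin and craniofacial mesenchyme, and Meox1 is a homeodomain protein of the somites. Pdgfra is a receptor tyrosine kinase for platelet-derived growth factors that marks many mesenchymal and neural crest-derived cells. Mesenchyme of the embryo has several origins, since somites and lateral plate give rise to it in the trunk and neural crest contributes much of it in the head, and the neural crest is also the source of the pigment cells that mitfa reporters label.

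The high library held 2374 cells of the table with a median of 6858.5 unique molecular identifiers (UMIs), and the low library held 2361 cells with a median of 5732. A UMI counts 1 captured RNA molecule. Levels are given as UMIs per 1000000 (CPM), meaning the UMIs of a gene summed over the cells of a cluster and divided by all UMIs of those cells. With 1 library per GFP fraction there was no spread between replicates to set a difference against, so no test was run. Intervals are at the 95% level and describe only the error of counting. One barcode occurred in both libraries. Cluster 2 carried the highest level of markers of 3 classes, with 4 of the 6 listed for somite and sclerotome, 3 of the 5 for crest ectomesenchyme and 4 of the 5 for endothelium, and so it was left unnamed, as was cluster 1. In cluster 2 the summed crest ectomesenchyme markers reached 364 CPM in the high and 512 CPM in the low library, the somite markers 154 and 144 CPM, and the endothelial markers 155 and 107 CPM. Cluster 1 had 229 and 584 CPM of the crest ectomesenchyme markers, 2.21 and 4.27 CPM of the somite markers, and 4.41 and 12.2 CPM of the endothelial markers. Macrophage markers in cluster 2 were at 0.747 CPM in the high library and at 0 in the low one. All cells of clusters 1 and 6 carried the deposited melanophore label. Of the 8 listed melanophore markers, 8 were highest in cluster 6 and 0 in cluster 1. Their sum was 1423 CPM in the high and 229 CPM in the low library in cluster 1, against 12649 and 10876 CPM in cluster 6. Mitfa was at 654 and 400 CPM in cluster 1, with a UMI in 83.9% and 66.6% of its cells. Sox10, a neural crest factor, led the crest markers in cluster 1 with 769 and 758 CPM.

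The 3 twist genes were concentrated in cluster 2 in both libraries. Twist1a, a regulator of mesenchymal state and of skull and limb development in mammals, had 553 UMIs or 413 CPM in cluster 2 of the high library (interval 379 to 449). The low library had 647 UMIs or 372 CPM (343 to 401). In cluster 1, by contrast, 5 and 4 UMIs were counted, or 1.23 and 1.22 CPM. A twist1a UMI was seen in 60.8% of cluster 2 cells in the high library and in 58.1% in the low library, and the richest single cells held 25 and 18 UMIs. Its duplicate twist1b had 108 CPM in cluster 2 of the high library (144 UMIs, interval 90.7 to 127) and 95.9 CPM in the low library (167 UMIs, 81.9 to 112). Cluster 1 held 5 and 11 UMIs of twist1b. Twist2, a related factor of dermal mesenchyme in mammals, was sparse everywhere. It had 17 UMIs in 12 cluster 2 cells of the high library and 19 UMIs in 15 cells of the low library, or 12.7 and 10.9 CPM. No twist2 UMI was found in cluster 1, where 3 counts, taken as the limit of a count of 0, allow a UMI in up to 0.690% of 435 cells and 0.789% of 380 cells. That limit concerns cells with a captured UMI, not cells that express the gene.

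The prrx1 pair followed the same division between the clusters. Prrx1a had 290 UMIs or 217 CPM in cluster 2 of the high library (interval 192 to 243) and 364 UMIs or 209 CPM in the low library (188 to 232). It was seen in 54.8% and 55.5% of the cells. Cluster 1 had 1 prrx1a UMI in the high library and 9 in the low library, and 5 of those 9 came from a single cell. Prrx1b had 61 UMIs in cluster 2 of the high library, or 45.6 CPM (34.8 to 58.5), and 98 UMIs in the low library, or 56.3 CPM (45.7 to 68.6). A single UMI was counted in cluster 1 of the high library and none in the low library. Because counting was by 3′ tags, reads shared by near-identical duplicates may be lost or split, and the division of signal within the twist1 and prrx1 pairs is to that extent uncertain.

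Meox1 and pdgfra completed the pattern. Meox1 had 507 UMIs in 87 cluster 2 cells of the high library, 379 CPM (interval 346 to 413), and 492 UMIs in 105 cells of the low library, 283 CPM (258 to 309). Those cells held 5.83 and 4.69 meox1 UMIs on average, with a maximum of 23 in each library. In cluster 1, 4 UMIs were counted in each library. Pdgfra had 339 UMIs or 253 CPM in cluster 2 of the high library (227 to 282) and 397 UMIs or 228 CPM in the low library (206 to 252). Its share of cells was 63.8% in the high and 55.5% in the low library. Cluster 1 differed between the libraries for this gene, with 6 UMIs (1.47 CPM) in the high and 30 UMIs (9.14 CPM) in the low library.

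**Figure D1:**
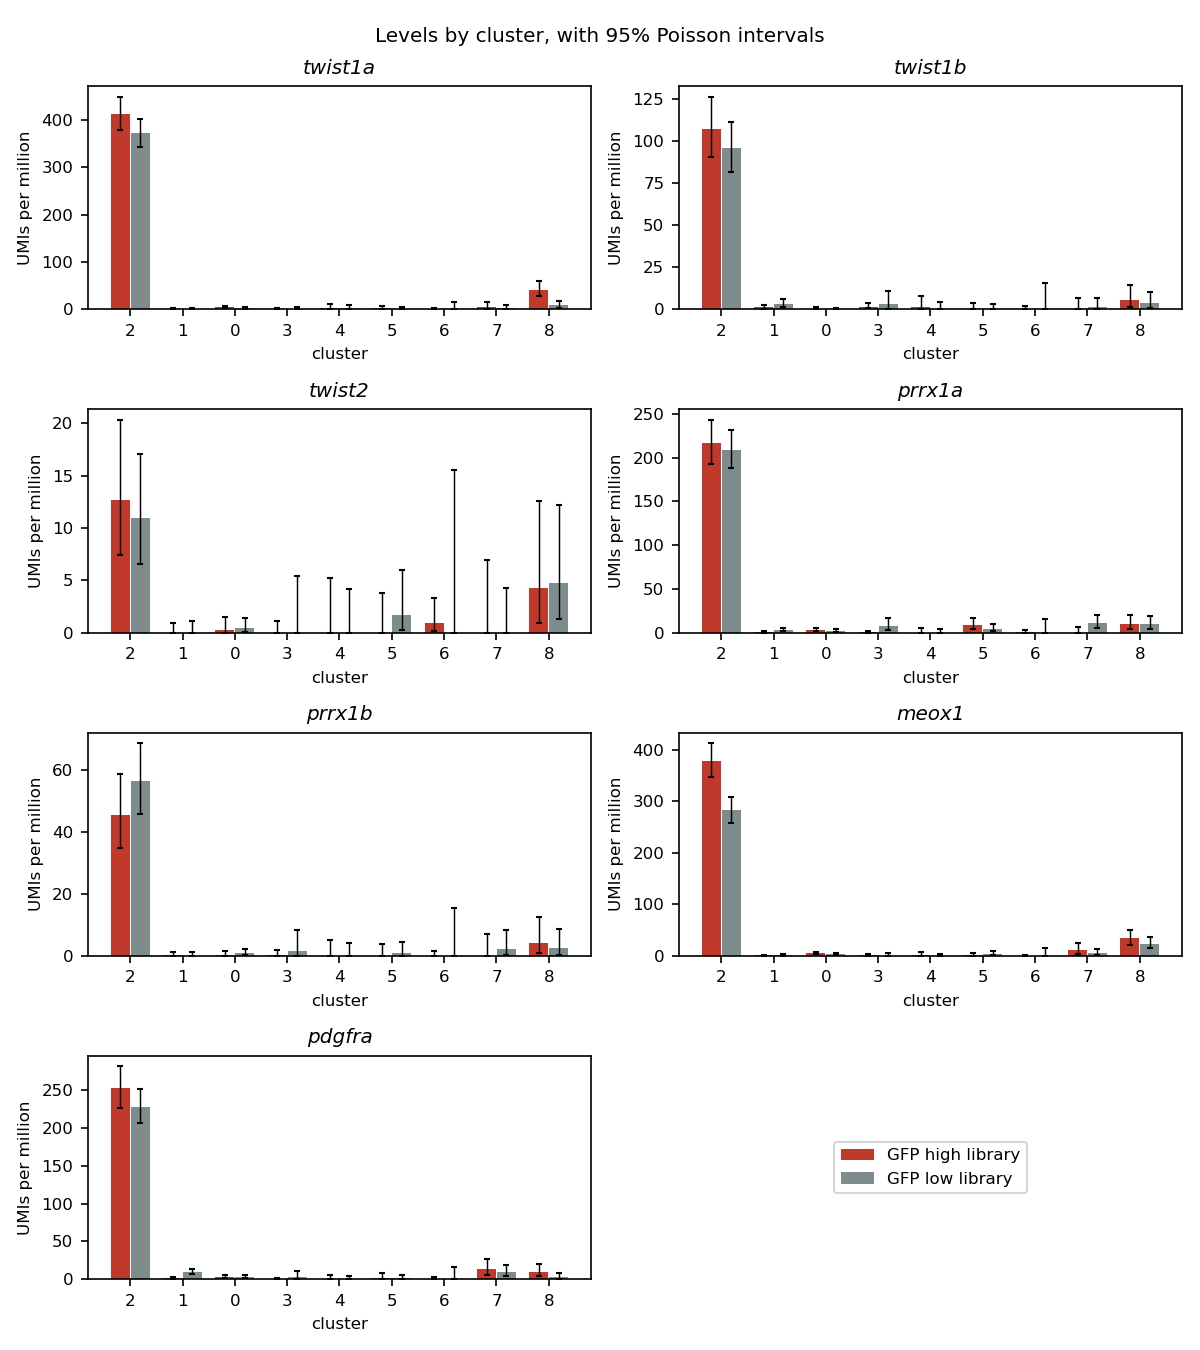
Level of each gene (y axis, CPM) in clusters 2, 1, 0 and 3 to 8 (x axis), with the GFP high library in red to the left of the GFP low library in grey; bars are summed UMIs and whiskers are 95% Poisson intervals. The bar of cluster 2 stands above that of every other cluster for each gene, as for twist1a with 413 and 372 CPM, and the muscle-like cluster 8 holds the next bar of meox1 (34.3 and 23.7 CPM). For twist2 the intervals of clusters 2 and 8 overlap, at 7.40 to 20.3 and 0.885 to 12.5 CPM in the high library. In the low library they are 6.57 to 17.0 and 1.29 to 12.2 CPM.

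Most transcripts of these genes in either library came from cluster 2, although it made up only 8.38% of the cells of the high and 11.2% of those of the low library. The share of a gene's UMIs that lay in cluster 2 was 90.2% for twist1a in the high and 95.4% in the low library, and 89.7% and 90.3% for meox1. Pdgfra had 90.4% and 87.1% there. Twist2 had the lowest shares, on few counts, with 73.9% of 23 UMIs and 70.4% of 27 UMIs (intervals 51.6% to 89.8% and 49.8% to 86.2%). A UMI of any of the 7 genes was seen in 88.9% of cluster 2 cells in the high and in 91.7% in the low library. Thinned to 2000 UMIs per cell, so that depth was equal, these shares were 79.0% and 79.9%. As a measure of stray RNA, neuron-like cells of cluster 4, which should lack the genes, had such a UMI in 2.70% of cells in the high library and 1.02% in the low library, at median depths of 4179 and 3988 UMIs against 5888 and 6057 in cluster 2. Shares were higher in neural progenitor-like cluster 0 (5.08% and 4.50%) and in retina-like cluster 5 (6.92% and 4.84%). Thinned to 2000 UMIs, they were 0.528% and 0.527% in cluster 4, 2.145% and 2.02% in cluster 0, and 2.13% and 3.05% in cluster 5.

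Outside cluster 2, summed over the 7 genes, the muscle-like cluster 8 came next, with 110 CPM in the high library (interval 86.9 to 138) and 54.6 CPM in the low library (40.0 to 72.9). The epidermis-like cluster 7 followed with 30.0 and 32.4 CPM. Its interval lay below that of cluster 8 in the high library (17.1 to 48.7) but overlapped it in the low library (21.5 to 46.8). All remaining clusters with cells in both libraries were at or below 17.7 CPM, and melanophore-like cluster 6 had 2.32 and 0 CPM. In cluster 8 meox1 was seen in 9 cells of each library (24 and 20 UMIs). Twist1a had 29 UMIs in the high library but 7 in the low library, where prrx1a had 8. Of the 29 twist1a UMIs, 9 came from 1 cell and 4 cells held at least 5 each, so this difference between libraries rested on a handful of cells.

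Set against cluster 1 within each library, 7 of 7 genes were at least 2-fold higher in cluster 2. Over all genes with at least 10 UMIs in the 2 clusters together, 19.2% in the high and 13.7% in the low library passed the same limit, and 19.2% and 15.3% were at least 2-fold lower. Because the clusters were made from all genes, these included, the contrast describes the clusters and tests nothing. Only 3 of the 7 had 10 UMIs in cluster 1 of the libraries together, and any other passed the minimum only with UMIs of cluster 2. The log2 ratio of twist1a was 8.40 in the high library (interval 7.17 to 10.03) and 8.25 in the low library (6.89 to 10.13). Meox1 had 8.59 (7.23 to 10.47) and 7.86 (6.49 to 9.74). Prrx1a had 9.79 (7.30 to 15.10) and 6.25 (5.31 to 7.39), and pdgfra 7.43 (6.29 to 8.88) and 4.64 (4.104 to 5.23), so that for pdgfra the intervals of the libraries did not overlap. Twist1b had 6.46 (5.20 to 8.10) and 4.84 (3.96 to 5.87). With a floor of 3 counts for each cluster 1 that had none, twist2 was at least 17.3-fold higher in the high and at least 11.9-fold higher in the low library. Prrx1b was at least 61.6-fold higher in the low library, and its log2 ratio was 7.54 (5.01 to 12.87) in the high library, where cluster 1 had 1 UMI. The median log2 ratio, with bounds taken as values, was 7.54 in the high and 5.94 in the low library, beside −0.08 and −0.09 over all genes.

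**Figure D2:**
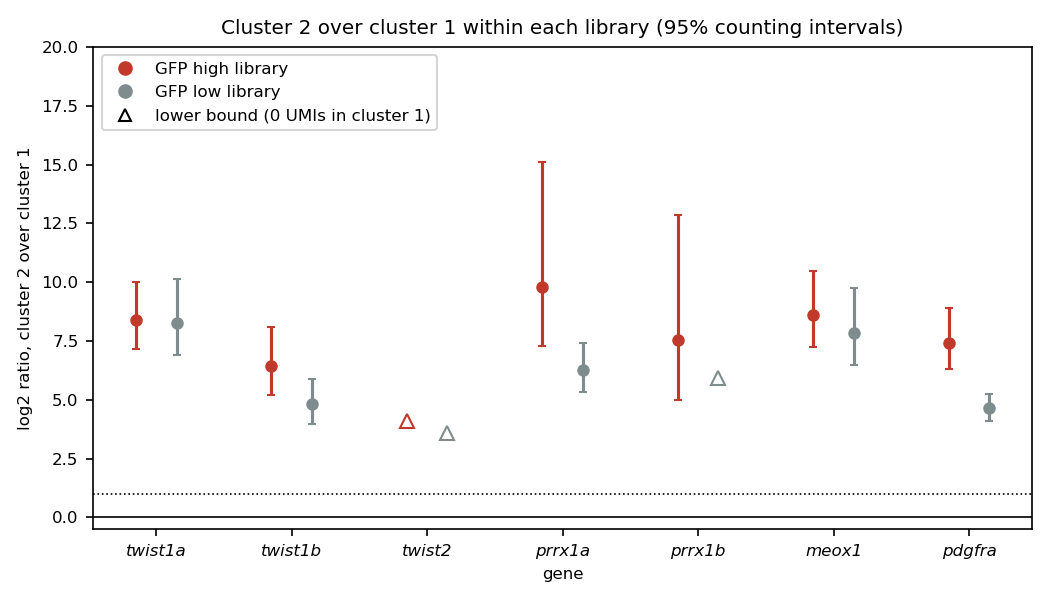
Log2 ratio of CPM in cluster 2 over cluster 1 (y axis) for each gene (x axis), high library in red and low library in grey; points carry 95% counting intervals, open triangles are lower bounds where cluster 1 had 0 UMIs, and the dotted line marks a 2-fold difference. All 7 genes lie above the line in both libraries, and pdgfra (7.43 and 4.64) is separated between libraries.

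Genes that act with these factors were read from lists, which were chosen with earlier results of these data known. Twist3, the remaining twist gene, had 29 and 21 UMIs in cluster 2 and none in cluster 1, which put it at least 29.5-fold higher in the high and 13.2-fold higher in the low library, while meox2a and meox2b were too sparse to compare. Of the bHLH partners, 8 of the 9 listed passed the minimum, with 4 at least 2-fold higher and 1 lower in the high library and 3 higher and 1 lower in the low library. The share of lower genes, 1 of 8, was near that over all genes (19.2% and 15.3%). At least 2-fold higher were 19.2% of all genes in the high and 13.7% in the low library, for this list and those that follow. Tcf12, an E protein gene, had the largest ratio of those 8 in both libraries, with 299 against 22.3 CPM in the high library and 246 against 29.9 CPM in the low library. The other E protein genes differed little, tcf3a by log2 ratios of 0.45 and 0.24 and tcf3b by 0.57 and 0.50. Id3, whose protein binds E proteins, had 795 against 244 CPM and 655 against 181 CPM, whereas id4 was the lower one, with 1 UMI against 55 and 5 UMIs against 21. In the platelet-derived growth factor list, 3 of 5 genes that passed the minimum were higher in the high library and 4 of 6 in the low library, and none was lower. The related receptor pdgfrb had 62.7 against 4.90 CPM in the high and 59.2 against 0.609 CPM in the low library. The ligand genes pdgfab and pdgfbb differed less between the clusters than pdgfrb did, although pdgfab was still over 2-fold higher in cluster 2. Pdgfab, which encodes an A-type ligand, had log2 ratios of 2.02 (1.08 to 2.99) and 1.499 (0.82 to 2.19), and pdgfbb had 0.05 (−0.53 to 0.60) and −0.38 (−0.82 to 0.06).

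In the somite and sclerotome list, 10 of the 10 genes that passed the minimum were higher in the high library and 9 of 9 in the low library. Over all genes, 19.2% and 13.7% were at least 2-fold higher. Only 1 of the 12 listed genes had 10 UMIs in cluster 1 of the libraries together. Any other gene could pass the minimum only with UMIs of cluster 2, so nothing is read from these counts. Tcf15, a bHLH factor of the somites, had 86.6 against 0.490 CPM and 67.8 against 0.914 CPM. Aldh1a2, which makes retinoic acid, had 150 against 0.245 CPM and 130 against 1.22 CPM. Of the list of mesenchymal transition and matrix genes, 13 of 20 were at least 2-fold higher and 2 lower in the high library, and 13 of 19 were higher and 4 lower in the low library, beside the 19.2% and 15.3% of all genes that were lower. Postnb, a periostin gene, had 946 against 26.2 CPM and 737 against 60.6 CPM, and the chemokine gene cxcl12b 271 against 0.735 CPM and 265 against 3.96 CPM. Against the name of the list, zeb2a had 76.2 against 871 CPM in the high and 51.7 against 942 CPM in the low library, and vim, the intermediate filament vimentin, had 10.5 against 70.8 CPM and 7.47 against 115 CPM. Of the crest ectomesenchyme genes, 7 of 12 were higher and none was lower in the high library, and in the low library 7 of 11 were higher and 3 lower. Over all genes, 19.2% and 13.7% were higher. Only 8 of the 15 listed genes had 10 UMIs in cluster 1 of the libraries together. Any other gene passed the minimum only with UMIs of cluster 2, so nothing is read from these counts either. Hand2, a bHLH factor of heart, fin and pharyngeal mesenchyme, had 60.5 against 0.490 CPM and 89.6 against 1.52 CPM. Dlx2a, a homeodomain factor of the pharyngeal arches, was shared by both clusters, with 119 against 144 CPM in the high and 168 against 351 CPM in the low library.

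Traces of the genes in cluster 1 were mostly 1 UMI in a cell. In the high library 17 cells of cluster 1 held 1 of the 7 genes, 2 cells held 2 and none more. The low library had 33 cells with 1 gene, 2 with 2 and 2 with 3. Any of the 7 was seen in 4.37% of cluster 1 cells in the high library (interval 2.65% to 6.74%) and in 9.74% in the low library (6.95% to 13.2%), and at 2000 UMIs per cell in 1.197% and 3.04%. At that thinned depth the shares were 2.145% and 2.02% in cluster 0 and 2.13% and 3.05% in retina-like cluster 5. In the melanophore-like cells of cluster 6, which had a median depth of 10960 UMIs beside 9207 in cluster 1 of the high library, the share without thinning was 2.03% (0.556% to 5.12%), and the intervals overlapped. The low library had only 22 such cells, with 0 carrying one, and the same limit of 3 counts allows a UMI in up to 13.6% of them. Pdgfra made up most of the cluster 1 signal of the low library, with 23 of 380 cells (6.05%, interval 3.88% to 8.94%) beside 6 of 435 in the high library (1.38%, 0.508% to 2.98%). No pdgfra UMI was seen in the 148 and 197 neuron-like cells, which were shallower, and in cluster 6 it was seen in 1 of 197 and 0 of 22 cells. The epidermis-like cluster 7 had it in 6.58% and 5.43% of cells, with an interval in the low library (2.21% to 10.9%) that overlapped that of cluster 1, and cluster 0 had it in 1.43% and 1.40%. Among cluster 1 cells with at least 2000 UMIs in the low library, 20 of the 23 with pdgfra also had dlx2a and 9 had mitfa. At 2000 UMIs per cell the share with pdgfra and dlx2a was 1.52 times the product of their single shares, and for pdgfra and mitfa it was 0.38 times. In the high library, on 6 cells with pdgfra, these values were 3.16 and 0.95. Dlx2a itself was lower in cluster 1 of the high than of the low library, at 144 against 351 CPM, and its part in the pdgfra difference was not tested.

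The GFP fractions were then compared within clusters. In cluster 2 none of the 7 genes differed by 2-fold between the high and the low library, where 5.56% of all genes that passed the minimum were higher and 4.16% lower by that much. The median log2 ratio of high over low was 0.15, beside 0.04 over all genes. Meox1 had the one interval that excluded 0, at 0.42 (0.24 to 0.60), and with each cell given equal weight its ratio was 0.23. Twist1a had 0.15 (−0.01 to 0.32), twist1b 0.17 (−0.17 to 0.50), prrx1a 0.05 (−0.18 to 0.28), pdgfra 0.15 (−0.06 to 0.36), prrx1b −0.30 (−0.79 to 0.17) and twist2 0.22 (−0.82 to 1.24). Endogenous mitfa was sparse there, with 19 UMIs in 13 of 199 cells of the high library and 1 UMI in 1 of 265 cells of the low library. Pigment cell markers differed between the libraries in cluster 2, and not only there. The xanthophore list summed to 319 CPM in cluster 2 of the high library (7 of 7 genes with a UMI, gch2 alone at 242 CPM) and to 41.9 CPM in that of the low library (4 of 7 genes). The melanophore list summed to 35.1 CPM (6 of 8 genes) and 5.74 CPM (4 of 8 genes). In muscle-like cluster 8 the xanthophore list summed to 466 and 16.6 CPM and the melanophore list to 65.8 and 7.12 CPM. Epidermis-like cluster 7 had 251 and 17.4 CPM of the xanthophore list. The melanophore list lay the other way in retina-like cluster 5, at 302 and 369 CPM. The part of these markers in the values of the 7 genes was not tested.

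Over all cells the direction was the other one. All 7 genes had less signal in the high than in the low library, with a median log2 ratio of −0.47 beside −0.13 over all genes, and none reached 2-fold, where 7.26% of all genes did in that direction and 7.29% in the other. Prrx1b was at −0.95 (−1.41 to −0.49), prrx1a at −0.62 (−0.83 to −0.40) and meox1 at −0.19 (−0.36 to −0.02). Cluster 2, from which most of the UMIs came, was itself a smaller part of the high library, as given above. In cluster 1 only 3 of the 7 genes had 10 UMIs in the libraries together, and these reached it mainly through the low library, so nothing is read from their shared direction. Over all genes, 7.26% were at least 2-fold lower in the high library and 8.31% higher. Pdgfra was at −2.64 (−4.19 to −1.35), prrx1a, with 1 UMI against 9, at −3.48 (−8.94 to −0.63) and twist1b at −1.45 (−3.33 to 0.19). Below the minimum, twist1a had 5 UMIs in the high against 4 in the low library and meox1 4 against 4. In cluster 8, where 7.47% of all genes were at least 2-fold higher and 4.87% lower, twist1a was higher in the high library at 2.32 (1.097 to 3.75), and meox1 at 0.53 (−0.39 to 1.46) and prrx1a at 0.08 (−1.62 to 1.73) had intervals that took in 0.

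**Figure D3:**
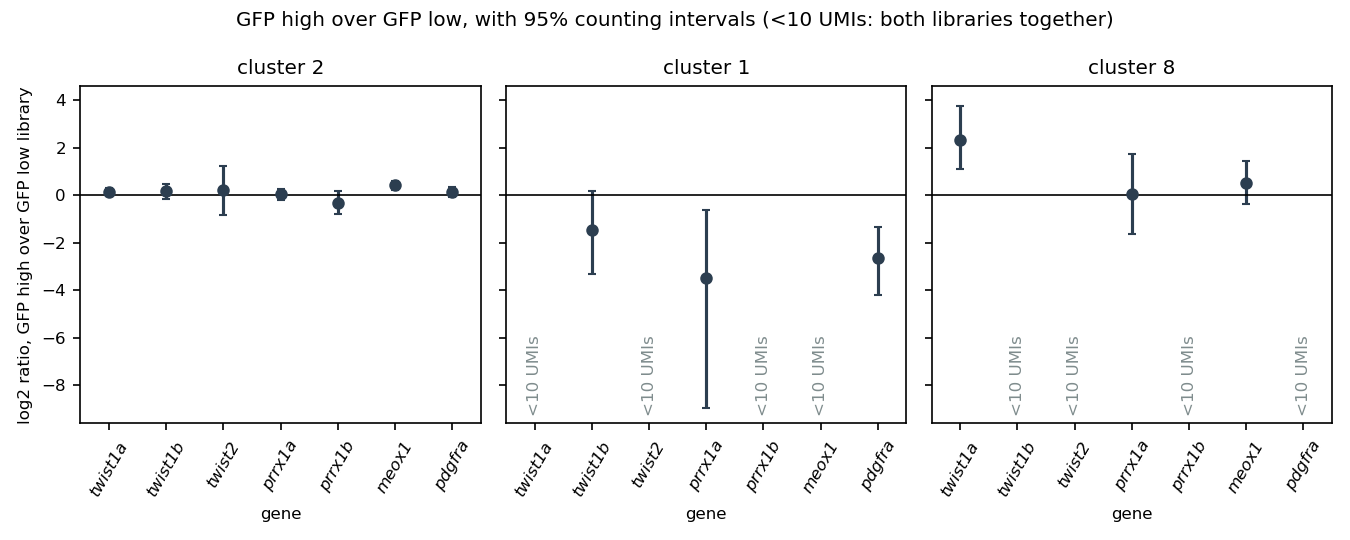
Log2 ratio of the GFP high over the GFP low library (y axis) for each gene (x axis) in clusters 2, 1 and 8, with 95% counting intervals; genes with under 10 UMIs in both libraries together carry no point. The 7 points of cluster 2 lie between −0.30 and 0.42, and twist1a in cluster 8 lies at 2.32. The 3 points of cluster 1 are the genes that reached 10 UMIs, mainly through the low library, and those left out there include twist1a (5 against 4 UMIs) and meox1 (4 against 4).

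Within cluster 2 the genes were not all captured in the same cells. A cell of the high library most often held 3 of the 7 (58 of 199 cells) and one of the low library 2 (71 of 265 cells). No cell held all 7, and 22 cells of each library held none. These counts were not thinned, and cells with none had median depths of 5348.5 and 4510.5 UMIs against 7068 and 7565 in those with 5. Twist2 was seen in only 12 and 15 cells, which bounds how many could hold all 7. To see which genes went together, cells were thinned to 2000 UMIs and the share with both genes of a pair was divided by the product of the single shares, a quotient of 1 where genes are spread over cells independently of each other. Of 21 pairs, 3 were at 1.5 or more in both libraries and 3 at 0.667 or less, limits set after the values were seen. Twist1b with meox1 stood at 1.82 in the high and 1.76 in the low library, seen together in 42 and 44 cells. Twist2 was seen with the same genes, at 2.47 and 3.16 with twist1b (9 and 8 cells) and at 1.64 and 2.05 with meox1 (10 and 12 cells). The opposing gene was prrx1b, at 0.43 and 0.45 with twist1b (8 cells with both in each library) and at 0.65 and 0.58 with meox1 (7 and 10 cells). Prrx1b was at 0 in both libraries with twist2, although that pair rests on 12 and 14 cells with twist2. Without thinning, twist1b with prrx1b stood at 0.758 in the high library, beyond that limit. Prrx1b was seen more with its duplicate prrx1a, at 1.54 and 1.46. Twist1a and twist1b, by contrast, were at 1.202 and 0.92. Prrx1a with meox1 stood at 1.06 and 0.99, and pdgfra lay between 0.81 and 1.40 with each of the others.

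**Figure D4:**
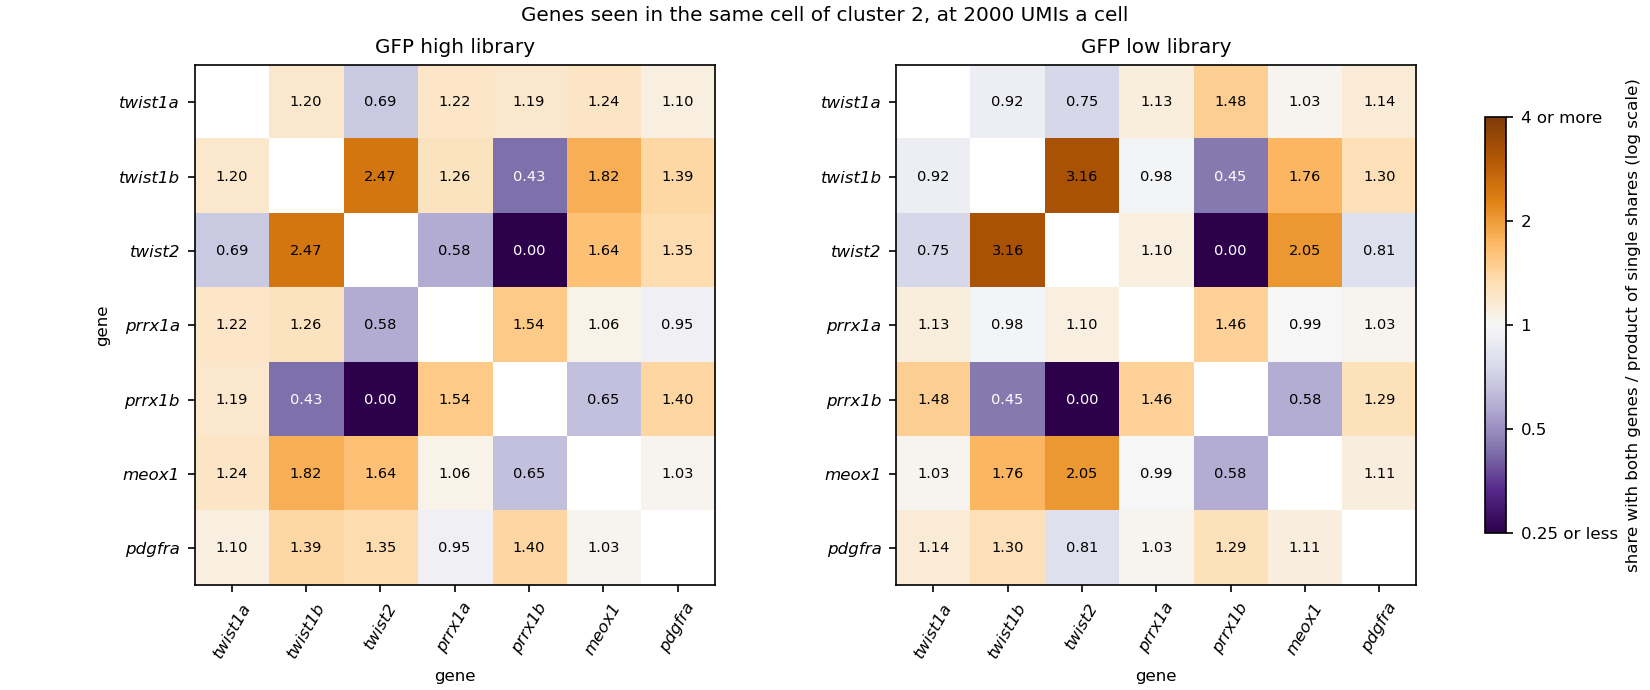
Share of cluster 2 cells with a UMI of both genes divided by the product of the single shares, for each pair of genes, at 2000 UMIs per cell in the GFP high (left) and GFP low library (right); orange to brown is above 1, purple below 1, on a log colour scale. Twist1b, twist2 and meox1 are orange to brown with each other and purple with prrx1b in both panels (twist1b with meox1 at 1.82 and 1.76, twist1b with prrx1b at 0.43 and 0.45).

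The same quotient was taken with 35 genes of the lists seen in at least 5% of thinned cells, of which the ones named here were chosen after their values were seen. Several were near 1, such as tcf3b, at 0.98 and 1.02 with twist1a and at 0.97 and 0.90 with meox1. Dlx2a was seen with prrx1b at 2.12 times the product in the high and 2.63 times in the low library, with twist1a at 1.81 and 1.77, and with prrx1a at 1.74 and 1.42. With twist1b it stood at 0.58 and 0.26 and with meox1 at 0.09 and 0.21, so the duplicates twist1a and twist1b lay on opposite sides of 1. Tcf15, the somite factor, was seen with meox1 at 2.02 and 2.42, with twist1b at 1.71 and 2.12, and with prrx1b at 0.34 and 0.44. Vcanb, a versican gene of the matrix, stood at 2.80 and 3.19 with twist1b and at 0.25 and 0.33 with prrx1b. Hand2 and meox1 were seen together at only 0.04 and 0.06 times the product, while hand2 with pdgfra was at 1.30 and 1.02. Unlike dlx2a, hand2 was at 0.66 and 0.88 with twist1a and at 0.89 and 0.97 with prrx1a. Twist1a with uncx, a homeodomain factor of the posterior somite, stood at 1.44 and 1.30. Snai2, a zinc finger factor of mesenchymal transition, was above 1 with meox1 (1.62 and 1.45) and with twist1b (1.78 and 1.55). Of the same family, snai1b was also above 1 with meox1 (1.39 and 1.40), but snai1a was below 1 (0.65 and 0.60).

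Cells of cluster 2 were further separated by meox1 and prrx1a, a choice made after the values were seen. In the high library 38 cells held meox1 without prrx1a, 60 prrx1a without meox1, 49 both and 52 neither, and the low library had 46, 88, 59 and 72 cells. Cells with meox1 without prrx1a had median depths of 5108 and 4966 UMIs, against 6686.5 and 7188 in those with prrx1a without meox1. A cell without a UMI of a gene may still express it, so the sets are of captured UMIs and not of distinct cell types. The 2 genes were seen together at 1.06 and 0.99 times the product, as given above. CPM levels were compared between cells with meox1 alone and cells with prrx1a alone, called meox1 cells and prrx1a cells here, for genes other than that pair. Over all genes with at least 10 UMIs, 12.1% were at least 2-fold higher and 14.3% lower in the meox1 cells of the high library, and 8.77% higher and 16.5% lower in those of the low library, and the median log2 ratio over all genes was −0.05 and −0.20. Twist1b had 148 CPM in meox1 cells against 52.5 CPM in prrx1a cells of the high library, and 186 against 49.3 CPM in the low library, or log2 ratios of 1.499 (0.70 to 2.32) and 1.92 (1.25 to 2.60). Prrx1b lay the other way, with 1 UMI against 38 and 3 UMIs against 69, or −4.35 (−9.70 to −1.79) and −3.07 (−5.39 to −1.47). Twist1a was at −0.07 (−0.42 to 0.27) and −0.42 (−0.80 to −0.06) and pdgfra at −0.24 (−0.66 to 0.17) and 0.07 (−0.38 to 0.50). Twist2 had 4 UMIs against none in the high library and 9 against 1 in the low library. These genes had already been paired with meox1 and prrx1a in the same cells, so the ratios describe the split and test nothing.

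Of the somite and sclerotome genes that passed the minimum, 5 of 7 were at least 2-fold higher and 1 lower in the meox1 cells of the high library, and 6 of 7 were higher and 1 lower in those of the low library. The lower gene in both was foxc1b, at −1.57 (−3.56 to −0.009) and −1.59 (−3.28 to −0.25). Tcf15 had 58 UMIs against 3 and 49 against 15, and uncx 57 against 0 and 21 against 0. Crest ectomesenchyme genes were mostly on the prrx1a side, with 4 of 6 lower and 1 higher in meox1 cells of the high library and 8 of 9 lower and 1 higher in the low library. Dlx2a had 1 UMI against 152 and 3 against 250, and hand2 had 0 against 48 and 0 against 110. The exception in both libraries was nr2f5, a nuclear receptor, at 2.04 (1.46 to 2.65) and 1.33 (0.87 to 1.78). Genes such as uncx and hand2 passed the minimum only through the side where they were high. Tcf15, dlx2a and hand2 had already been set against meox1 in the same cells, as given above. The counts of both lists therefore describe the split and test nothing. Of the matrix and transition list, 10 of 17 were higher and 2 lower in the high library and 7 of 18 higher and 1 lower in the low library. Beside all 3 lists, 12.1% of all genes were higher and 14.3% lower in the high library, and 8.77% and 16.5% in the low library. The matrix and transition list was read from the same split, so its counts describe that split and test nothing either. Cells with meox1 and prrx1a together had 134 CPM of tcf15 in the high and 128 CPM in the low library, 219 and 172 CPM of twist1b, and 5.48 and 12.3 CPM of dlx2a. Matrix genes in these cells included postnb, at 1206 CPM in the high library beside 2184 CPM in meox1 cells and 338 CPM in prrx1a cells. In the low library postnb had 953 CPM beside 1583 and 469 CPM. The protease gene mmp2 was at 21.9 CPM beside 110 and 22.8 CPM in the high library, and at 22.2 beside 63.3 and 17.4 CPM in the low library. Cxcl12b was instead highest in the cells with both, at 639 CPM beside 360 and 22.8 CPM in the high library. In the low library cxcl12b had 594 CPM beside 522 and 63.8 CPM. Fn1b was also highest there, at 184 beside 119 and 70.8 CPM and at 143 beside 115 and 60.9 CPM. Its duplicate fn1a was instead highest in prrx1a cells, at 71.3 beside 59.4 and 126 CPM and at 71.4 beside 83.1 and 145 CPM.

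**Figure D5:**
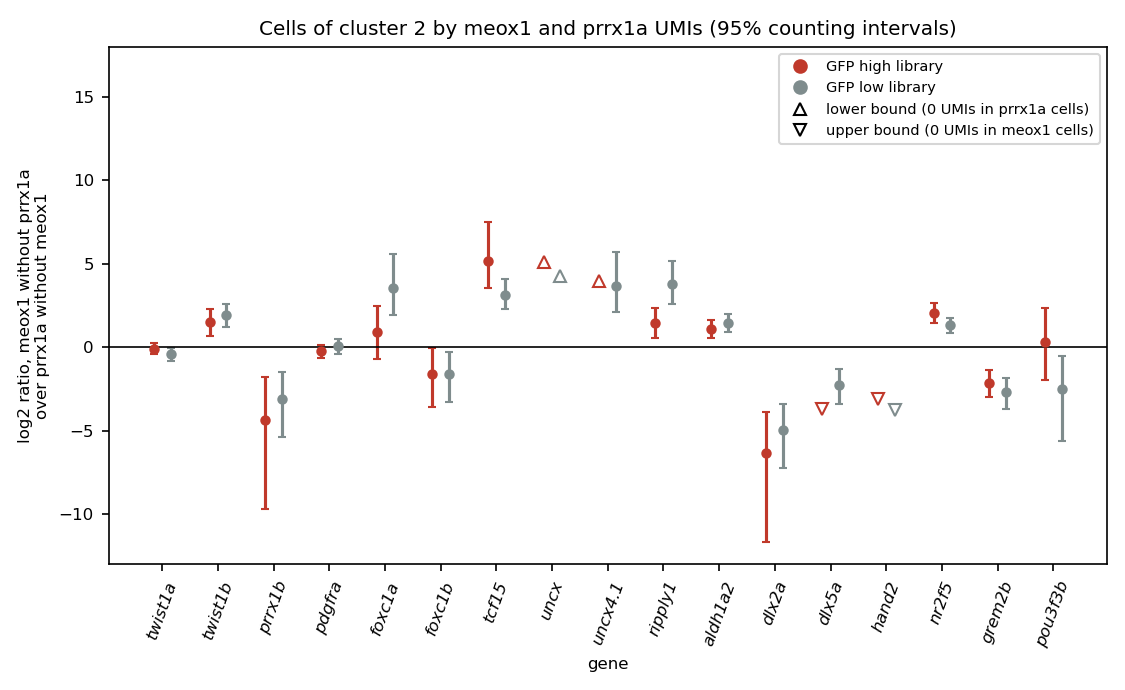
Log2 ratio of levels in cluster 2 cells with meox1 without prrx1a over those with prrx1a without meox1 (y axis), high library in red and low library in grey, for the other 5 genes and the somite and crest ectomesenchyme lists where both libraries had at least 10 UMIs (twist2 fell short); whiskers are 95% counting intervals and open triangles are bounds where one side had 0 UMIs. Twist1b (1.499 and 1.92) lies with tcf15 and uncx above 0 and prrx1b (−4.35 and −3.07) lies with dlx2a and hand2 below it, while twist1a (−0.07 and −0.42) and pdgfra (−0.24 and 0.07) lie closer to 0. Unlike most of their lists, the somite gene foxc1b (−1.57 and −1.59) lies below 0 and the crest list gene nr2f5 (2.04 and 1.33) above it. The split was chosen after the values were seen, and the ratios describe it and test nothing.

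Some of the cells with neither gene held endothelial markers. Cdh5, the vascular cadherin, had 240 CPM in them in the high and 161 CPM in the low library, from 7.69% and 11.1% of these cells, and was at 0 in the other cells of cluster 2. The receptor gene kdrl was seen in 13.5% and 8.33% of the cells with neither gene and also in 5.00% and 6.82% of prrx1a cells. In all, 12 cells of cluster 2 in the high and 18 in the low library had a UMI of cdh5, kdrl or tie1. Of these cells, 33.3% in the high and 38.9% in the low library also held prrx1a, so the set may mix cell types. Pdgfra had 251 and 247 CPM in this set, on 28 and 29 UMIs, against 253 and 227 CPM in the rest of the cluster. Meox1 had 117 and 42.6 CPM in them, against 402 and 300 CPM in the rest, and in each library its UMIs in the endothelial marker cells came from 1 cell. Without these cells, an alternative chosen after seeing the data, the median log2 ratio of cluster 2 over cluster 1 was 7.54 in the high and 5.95 in the low library, and the same number of pairs, 3 above and 3 below, passed the limits.

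Across 18 sums, clusters 0 to 8 in each library, the 7 genes had much the same profile, with Pearson correlations of log2(CPM + 5) between 0.84 (twist2 with pdgfra) and 0.98 (twist1b with prrx1b). The points share libraries, and the high level of cluster 2 in both sets most of each value. Genes with the nearest profile among those with at least 200 UMIs were lrrc17, tmem88a and angptl7 for twist1a (0.97, 0.97 and 0.96) and lrrc17, tmem88a and col6a2 for twist1b (0.97, 0.97 and 0.96). For twist2 they were tmem88a, vwde and thbs4b (0.94 each). Prrx1a was followed by csf1a, tmem88a and hand2 (0.96, 0.96 and 0.94), and prrx1b by tmem88a, lrrc17 and col6a2 (0.98, 0.97 and 0.97). Angptl7, tmem88a and col11a1b were nearest to meox1 (0.97, 0.96 and 0.95), and lrrc17, si:dkey-261h17.1 and lpar1 to pdgfra (0.96, 0.95 and 0.95). Col6a2 and col11a1b encode collagen chains, and csf1a encodes a ligand of the receptor Csf1r on which xanthophores depend. It had 108 and 86.1 CPM in cluster 2, against 3.19 and 4.88 CPM in cluster 1. Prrx1b and twist1b, at 0.98 over clusters, were seen together in cells of cluster 2 at 0.43 and 0.45 times the product. That rests on 8 cells with both genes in each library, and without thinning the high library was nearer the product, as given above.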

How the data were processed

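The 2 libraries of Tg(mitfa:GFP) cells, sorted for high or low GFP, were analysed. Raw UMI counts per gene and cell were deposited for either library, made by the authors with Cell Ranger 6.1.2 and, per the labels' processing notes, genome build GRCz11. The authors' aggregated matrix also holds counts, with the high library reduced to 86.6% of its UMIs, and was used as an alternative only. Clusters, the GFP fraction, the melanophore label and the mitochondrial percent came from the cell table deposited by the authors, who used Seurat, and 6 of its columns were not used. No sequence is printed because no genome of that build was used here.

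UMIs were summed over the cells of the table by cluster and library and scaled to CPM. Intervals at 95% are exact Poisson for levels, Clopper-Pearson for shares and exact conditional binomial for ratios. Where one side of a ratio held no UMI, 3 counts took its place as a floor, and genes needed 10 UMIs in both sides together. Shares after thinning to 2000 UMIs were computed exactly, leaving out 5 and 11 shallower cells of cluster 2. Clusters were called X-like, under a counting rule set after the data were seen, when at least 3 markers of a class were highest there and summed to 3 times those of any other such class. Named genes were the 7 genes, the gene lists and 3 genes of nearest profile for each. The 7 genes and the lists were chosen with earlier results of these data known. Of 74 listed genes, 72 were found under their symbol (not tcf4 and nkx3.2), and symbols follow the deposited files.

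No doublets were removed. Scrublet (scanpy 1.11.5) marked 7 and 4 barcodes by its automatic threshold, too few to be usable, so the top 5 percent of scores were left out as an alternative. Other alternatives were TMM factors (edgeR 4.0.16), median-of-ratios factors, other totals, weights, minimums, a pseudocount and thinning depths. The ratio and thinning steps were tested on simulated data. Python 3.11.15, scipy 1.17.1 and R 4.3.3 were used.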

Additional observations from a re-analysis of the deposited data

Results flagged for a closer look

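Among genes with at least 10 UMIs in the libraries together, the log2 ratios of high over low lay on opposite sides of 0 in clusters 1 and 2 for 3 genes, and the difference between the clusters was not tested. Their cluster 2 intervals took in 0, as did that of twist1b in cluster 1. Below that minimum in cluster 1, meox1 (4 UMIs in each library) was at −0.31 (−2.74 to 2.11) there and at 0.42 in cluster 2. Twist1a (5 UMIs in the high against 4 in the low library) was at 0.008 (−2.21 to 2.34) and 0.15. Both cluster 1 intervals took in 0, so no sign is read from them. Pdgfra had a log2 ratio of −2.64 in cluster 1 and 0.15 in cluster 2, twist1b −1.45 and 0.17, and prrx1a −3.48 and 0.05. Counts in cluster 1 were small, with 6 UMIs in the high against 30 in the low library for pdgfra, 5 against 11 for twist1b and 1 against 9 for prrx1a, of which 5 lay in 1 cell. These 3 genes reached the minimum there mainly through the low library, so nothing is read from their shared direction in cluster 1.

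UMIs of the 7 genes also occurred in barcodes that the cell table left out. In the high library 13 of 231 such barcodes held one (5.63%, interval 3.03% to 9.43%), and in the low library 27 of 310 did (8.71%, 5.82% to 12.4%), at median depths of 1160 and 945 UMIs. Among kept cells the shares were 12.2% and 15.8% at median depths of 6858.5 and 5732 UMIs.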

How the results depend on the processing

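With 1 library per GFP fraction, no setting replaces a replicate, and every value above describes these libraries only. No paired analysis was possible because each fraction had 1 library and no replicate number. A pseudocount, log2(CPM + 5), lowered the median log2 ratio of cluster 2 over cluster 1 to 5.32 in the high and 4.04 in the low library, and moved that of high over low in cluster 1 to −0.56. Under the other alternatives these medians ranged up to 7.97, 6.098 and down to −2.87, and a minimum of 50 UMIs left no gene for the last. With that minimum 6 of the 7 genes could be counted in place of 7. The median of high over low stayed between 0.03 and 0.17 in cluster 2 and between −0.62 and −0.26 over all cells, where TMM factors, which shift all genes alike, gave −0.35. Shares of cells with any of the genes followed the depth. In cluster 2 they were 88.9% in the high and 91.7% in the low library without thinning, 65.0% and 62.8% at 1000 UMIs, and 87.6% and 90.7% at 4000 UMIs. In cluster 1 they were 4.37% and 9.74% without thinning and 5.50% in the low library at 4000 UMIs. A 1.5-fold limit counted 2 bHLH partners as lower in the high library in place of 1 and 4 as higher in the low library in place of 3. It counted 14 matrix and transition genes as higher and 3 as lower in the high library, in place of 13 and 2, and 15 as higher in the low library in place of 13. Leaving out the cells with the highest doublet scores kept 3 pairs above and 3 below the limits, and other thinning left 3 above and 2 or 3 below. Twist2, with 17 and 19 UMIs in cluster 2, is limited by depth throughout.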
